A study of Mus musculus with 8 samples.

Results

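The solute carriers are a superfamily of membrane proteins, named Slc with a family number, the letter a and a member number, that move small molecules and ions across membranes. The set described here held every gene of the table whose symbol has that form and whose mean over all 8 libraries was 2 or more, without Slc2a1, Slc7a2, Slc7a11 and Slc25a1, which were left out by name. It came to 156 of the 23366 genes in the table. The pattern matched 331 rows, of which 160 reached the mean of 2 before the 4 named genes were left out, 171 stayed below it and 62 of these were at 0 in every library. The genes were chosen by their symbol and their mean level over all libraries, so the level itself is a description. The rule uses no contrast between groups, but it was set with earlier results of these data known. Just inside the limit stood Slc13a2 with a mean of 2.21 and Slc15a2 with 2.24, and just outside it Slc25a42 with 1.87 and Slc9a5 with 1.78. All 156 genes were tested. Of these, 150 reached a mean of 2 in each of the 4 groups, and 6 (Slc24a3, Slc25a23, Slc29a2, Slc1a4, Slc15a2 and Slc13a2) reached it in 3.

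Solute carriers work without burning ATP themselves: facilitative carriers let a solute run down its own gradient, and coupled carriers tie it to the gradient of sodium, protons or another solute. They supply macrophages with glucose, amino acids, nucleosides, vitamins and metals, exchange metabolites across the inner mitochondrial membrane, empty lysosomes of digestion products and set cell volume and pH. Macrophages are known for a specialised set of them, which withholds metals from microbes in phagosomes, recycles iron from red cells and feeds activated metabolism.

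The RNA came from macrophages grown out of the bone marrow of mice with a C57BL/6 background. The 4 groups had 2 libraries each: Lsd1SA/SA KI cells with LPS for 2 h, Lsd1SA/SA KI cells without LPS, WT cells with LPS for 2 h and WT cells without LPS. KI stands for a knock-in whose LSD1, a histone demethylase, is phosphorylation-defective, per the labels, and WT for wild type. LPS (lipopolysaccharide) is a cell wall component of Gram-negative bacteria that starts an inflammatory response. All groups were at passage 1 and spent 24 h without serum, the labels give the LPS dose as 1 mg/ml, and the titles of the KI LPS samples give the time while their other labels name LPS. The comparisons ask what LPS did to the carriers in each genotype, and whether genotype changed the levels or the LPS response.

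Libraries held 40379258 to 55595160 reads, and levels are read counts normalised to library size, in the form of CPM. The library sizes were scaled by factors, worked out from the values, of 0.878 and 0.866 in WT LPS. They were 1.02 and 1.02 in KI LPS, 1.06 and 1.05 in untreated KI and 1.07 and 1.07 in untreated WT libraries. A lower factor raises every level of a library, so levels and their sums rest on this scaling. The lowest carrier had 38 reads in a library, and 6 of the 156 had fewer than 100 in some library. The median coefficient of variation between the 2 libraries of a group, over the carriers, was 3.18% in KI LPS, 3.30% in untreated KI, 3.11% in WT LPS and 4.74% in untreated WT. No label says that the replicates came from separate animals or cultures, and the p-values therefore rest on a spread between samples that may be technical alone. The macrophage genes Csf1r (1210 to 1635), Cd68 (2000 to 2357) and Lyz2 (6010 to 8980) were high in all 8 libraries, but of the 9 tested macrophage markers 2 were called higher and 7 lower in KI LPS than in WT LPS. Of all tested genes 38.5% were called higher and 36.8% lower in that comparison. The summed level of the 9 macrophage markers was 12885 and 12235 in KI LPS, 13961 and 14624 in untreated KI, 17962 and 17579 in WT LPS and 14206 and 14162 in untreated WT libraries. Mrc1 stood at 349.6 and 334 in KI LPS, against 691 to 879 in the other 6 libraries, and Itgam at 460.2 and 439.5, against 636 to 732. Fcgr1 stood at 927 and 898 in KI LPS, against 255 to 288 in the other 6. Cd14, a co-receptor for LPS, stood at 67.3 and 65.1 in KI LPS, 136 and 130.2 in untreated KI, 1348 and 1421 in WT LPS and 133 and 126 in untreated WT libraries. Xist, which female cells transcribe from an inactive X chromosome, stood at 0.366 and 0.212 in the KI LPS libraries and at 315 to 437 in the other 6. The Y-linked Ddx3y, Eif2s3y, Uty and Kdm5d were at 8.80 to 35.0 in the KI LPS libraries, and at or near 0 in the other 6. The KI LPS cells thus differed from every other group in sex-linked transcripts, so in each comparison that uses them LPS or genotype cannot be told apart from the origin of these libraries. The summed level of 8 stromal markers was 56.2 and 56.1 in KI LPS against 13.3 to 17.9 in the others. Of the 6 tested, 5 were called higher in KI LPS than in WT LPS and 1, Pdgfrb, lower (1.66 and 1.98 against 3.54 and 3.96). The sum of 7 mast cell and basophil markers was 79.4 and 81.4 against 31.1 to 48.1, with Mcpt4 and Tpsb2 at 0 throughout. Of the 5 tested, 3 were higher and 0 lower. The summed level of 8 neutrophil markers was 509.5 and 518 in KI LPS, 371 and 382 in untreated KI, 777 and 798 in WT LPS and 373 and 383 in untreated WT libraries. Of these 8, 2 (Mmp8 and Elane) were called higher and 6 lower in KI LPS than in WT LPS. The part of these cell types in the results was not tested. In such bulk samples a lower level can mean fewer cells of a type or less RNA per cell, which cannot be told apart.

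The promoter sequences below belong to 3 of the 4 carriers with the largest LPS changes and are shown so that their response, described in the later paragraphs, can be read beside the DNA at their start. Each runs across 300 bases around the gene start, in the RefSeq annotation of build GRCm38.p6. Capitals mark matches to GGG, any 5 bases and CC, a loose form of the site bound by NF-kB, on either strand. The fourth, Slc39a14, is named only.
Slc2a6 promoter, chr2:27027949-27028248, minus strand: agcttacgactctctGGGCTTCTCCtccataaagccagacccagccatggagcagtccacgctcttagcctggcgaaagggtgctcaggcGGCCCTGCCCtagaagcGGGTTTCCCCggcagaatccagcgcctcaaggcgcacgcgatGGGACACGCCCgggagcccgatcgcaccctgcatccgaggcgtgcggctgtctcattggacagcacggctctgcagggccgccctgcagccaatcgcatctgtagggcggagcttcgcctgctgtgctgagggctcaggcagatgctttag
Slc4a7 promoter, chr14:14718534-14718833, plus strand: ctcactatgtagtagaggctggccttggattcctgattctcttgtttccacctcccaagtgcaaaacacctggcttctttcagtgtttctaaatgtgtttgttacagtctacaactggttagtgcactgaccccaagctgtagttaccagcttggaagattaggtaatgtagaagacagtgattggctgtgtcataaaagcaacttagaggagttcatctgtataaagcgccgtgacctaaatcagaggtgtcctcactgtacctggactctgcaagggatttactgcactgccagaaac
Slc30a4 promoter, chr2:122702614-122702913, minus strand: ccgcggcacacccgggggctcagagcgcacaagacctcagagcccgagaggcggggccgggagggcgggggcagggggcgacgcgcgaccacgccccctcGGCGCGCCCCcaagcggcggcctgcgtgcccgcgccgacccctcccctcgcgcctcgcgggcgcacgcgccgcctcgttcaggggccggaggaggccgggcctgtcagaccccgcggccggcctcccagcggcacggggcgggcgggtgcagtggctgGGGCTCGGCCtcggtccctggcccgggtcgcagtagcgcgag
The Slc2a6 promoter held 5 matches, of which 2 overlap each other, the Slc30a4 promoter held 2 and the Slc4a7 promoter 0. None of the 3 held GAAA, any 2 bases and GAAA, the core of an interferon-stimulated response element, or TGANTCA, the AP-1 site. Among all 32851 promoters of the table, 50.8% held the NF-kB letters, 3.4% the interferon letters and 7.8% TGANTCA, so a single NF-kB match in these letters is common. A promoter row was found for 115 of the 156 carriers.

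Per kilobase of exon, the carrier with the highest level was Slc3a2, the heavy chain CD98 that brings amino acid transporters to the cell surface, with a mean of 228 normalised counts per kb over the 8 libraries. The next places went to Slc11a1 (191), the phagosomal metal exporter NRAMP1, Slc48a1 (177), the heme exporter HRG1 of the phagolysosome, and Slc25a5 (152), an ADP/ATP carrier of the inner mitochondrial membrane. Slc6a6, which takes up taurine, and Slc15a3, a lysosomal peptide and histidine carrier, had means of 109 and 97.9 per kb. Among the top 20 on this scale were the metal carriers Slc11a1, Slc39a1, Slc31a2, Slc39a7 and Slc40a1. Without regard to length, 26 carriers had a mean of 100 or more and 27 a mean under 10.

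**Figure D1:**
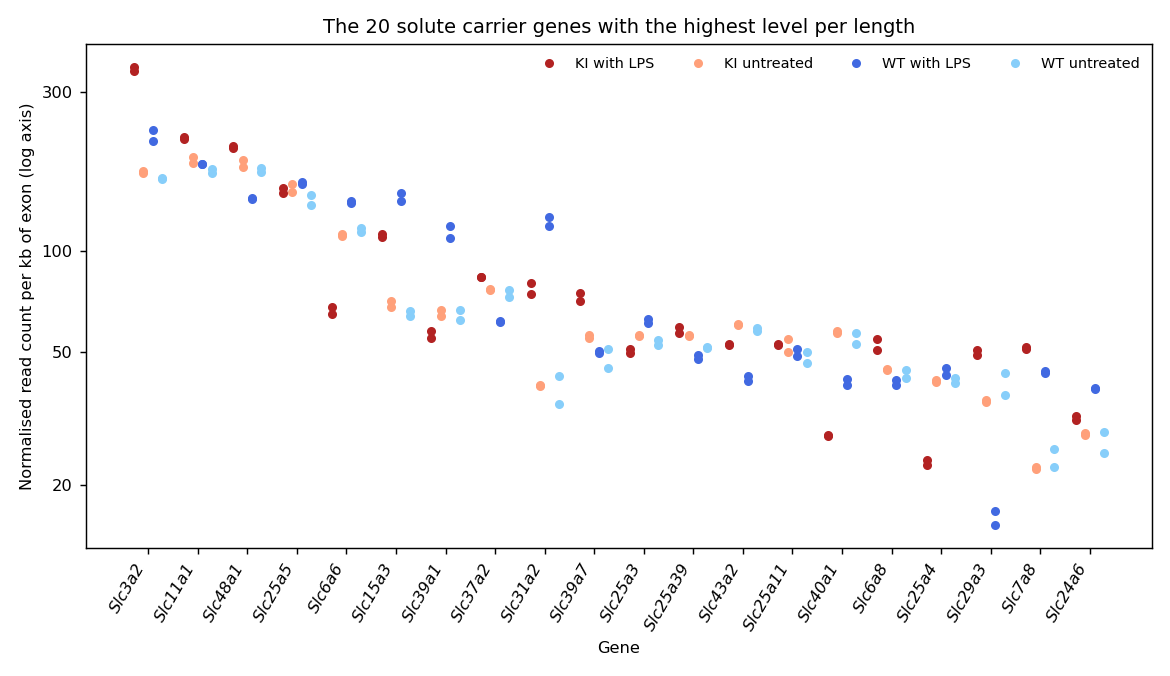
Normalised read count per kb of exon (log axis) in each library of KI with LPS, KI untreated, WT with LPS and WT untreated for the 20 solute carrier genes with the highest level per length, each point being 1 library. Slc3a2 is highest in the KI LPS libraries, and Slc29a3 and Slc40a1 are among the genes whose LPS libraries lie apart between the genotypes.

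Most carriers differed between LPS and untreated libraries, 107 of 156 in KI and 99 in WT, and of all 11919 tested genes 56.7% in KI and 57.6% in WT. In KI, the LPS effect names this difference between libraries, which also differed in sex-linked transcripts. In KI cells 52 carriers rose and 55 fell (33.3% and 35.3% of 156), where 28.5% of all genes rose and 28.3% fell. In WT cells 49 rose and 50 fell (31.4% and 32.1%), where 26.8% of all genes rose and 30.7% fell. These shares stand near those of all genes. The class counts in later paragraphs are to be read beside the same shares of all genes, and no class was tested as a set. Among genes that also have a mean of 2 or more, 29.6% rose and 28.6% fell in KI, and 27.8% rose and 31.3% fell in WT. The median log2 LPS effect over the carriers was -0.0072 in KI and -0.031 in WT, beside 0.016 and -0.032 over all genes. Effects are given as the log2 difference ± its standard error (SE), and a gene was counted as risen or fallen when its limma p, adjusted by the Benjamini-Hochberg method over all tested genes, was under 0.05. With quantile normalisation of all libraries, 41 carriers rose and 64 fell in WT, and of the WT calls over all genes 35.4% were higher, against 46.6% without it.

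The direction of the response often differed between KI and WT cells, where genotype cannot be told apart from the origin of the KI LPS libraries. With LPS 19 carriers rose in both genotypes and 17 fell in both, but 19 fell in KI and rose in WT, and another 19 rose in KI and fell in WT. The 38 carriers called in opposite directions are 24.4% of the set, beside 15.7% of all tested genes and 16.7% of genes with a mean of 2 or more. The 36 called in the same direction are 23.1%, beside 17.6% and 18.4%. Across the alternatives tried, 29 to 39 carriers were called in opposite directions. The difference between the LPS effects was itself tested, and it was higher in KI for 47 carriers and lower for 57, where 31.8% of all genes were higher and 31.8% lower. These 104 carriers stand beside 63.7% of all genes, and the 38 with opposite calls were all among them. The class counts of higher and lower effects in later paragraphs are to be read beside the 31.8% and 31.8% of all genes. Across the 156 carriers the effects in the 2 genotypes had a Pearson correlation of 0.050 and a Spearman correlation of 0.022. Over all genes the Pearson correlation was 0.12 and the Spearman correlation 0.039. These correlations describe genes within the same libraries, and genes are not independent replicates.

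**Figure D2:**
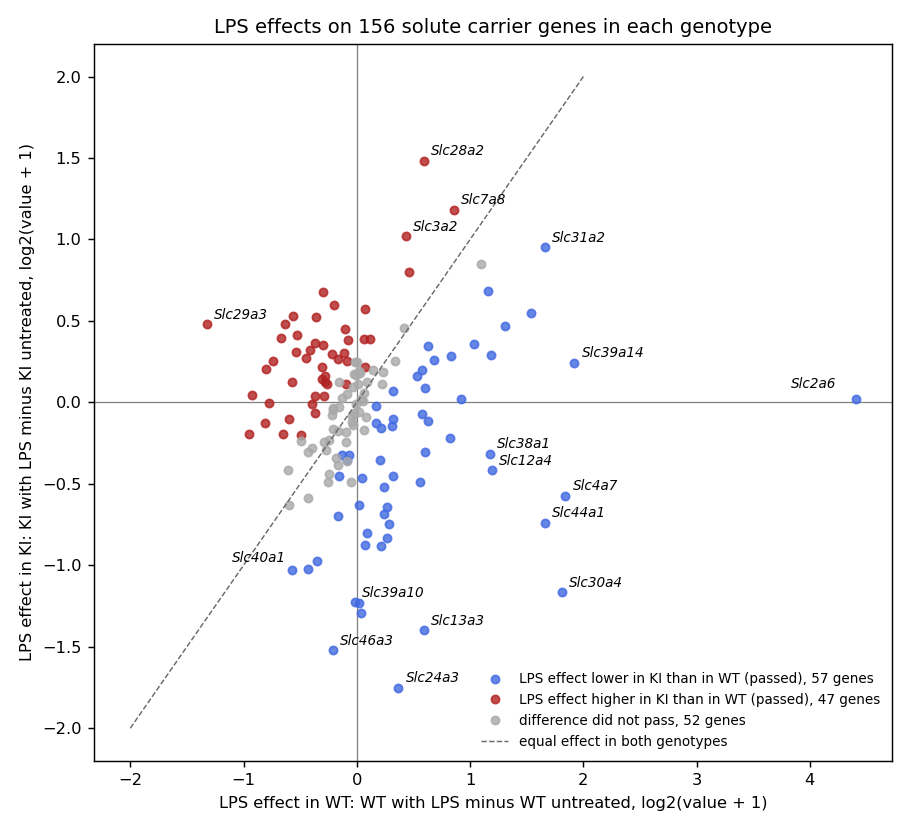
LPS effect on each of the 156 solute carrier genes in KI (vertical axis) against that in WT (horizontal axis), both as a difference of log2(value + 1), coloured by whether the difference between the effects passed at an adjusted p under 0.05. The points fill all 4 quadrants, with Slc2a6, at 0.019 in KI and 4.41 in WT, at the far right.

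**Figure D3:**
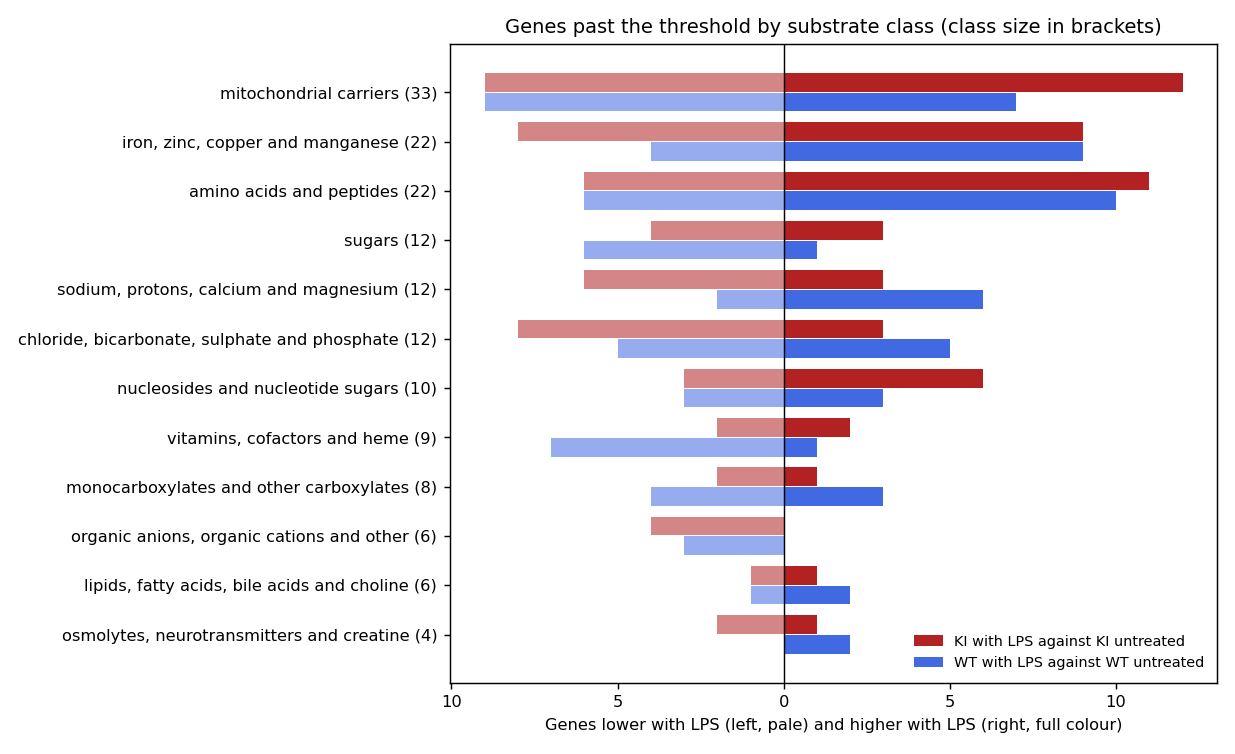
Number of solute carrier genes that passed the limma test in each substrate class, lower with LPS to the left and higher to the right, for KI (upper bar) and WT (lower bar), with the class size in brackets. Among vitamin, cofactor and heme carriers 2 fell in KI and 7 in WT, and among anion carriers 8 fell in KI and 5 in WT. Of all tested genes 28.5% rose and 28.3% fell in KI, and 26.8% rose and 30.7% fell in WT.

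The carrier with the largest LPS response was a sugar carrier. Of 12 sugar carriers 3 rose and 4 fell with LPS in KI, against 1 that rose and 6 that fell in WT, and the LPS effect was higher in KI for 5 and lower for 2. Slc2a6 encodes GLUT6, a hexose carrier of lysosomal membranes. Slc2a6 levels were 7.85 and 5.75 in KI LPS, 6.96 and 6.31 in untreated KI, 145 and 145 in WT LPS and 6.44 and 5.37 in untreated WT libraries. Its level was about the same in all KI and untreated WT libraries and stood far above them in both WT LPS libraries, with mean ratios of 1.02 in KI and 24.6 in WT for LPS over untreated. Slc2a6 did not pass the test with LPS in KI (log2 difference 0.019 ± 0.11, limma adjusted p = 0.896) and rose in WT cells (log2 difference 4.41 ± 0.11, limma adjusted p = 3.73e-21). Slc2a6 effects in KI and WT differed by -4.39 ± 0.15 (KI minus WT, limma adjusted p = 1.03e-17). Slc37a2 and Slc37a4 exchange glucose 6-phosphate for phosphate across the endoplasmic reticulum, and Slc37a2 was the most abundant sugar carrier by level. Slc37a2 levels were 556 and 558 in KI LPS, 510.3 and 513 in untreated KI, 410.3 and 408 in WT LPS and 510.3 and 486 in untreated WT libraries. For Slc37a2 the KI LPS libraries were the highest and the WT LPS libraries the lowest, with no overlap. Slc37a2 rose with LPS in KI (log2 difference 0.12 ± 0.044, limma adjusted p = 0.0215) and fell in WT cells (log2 difference -0.28 ± 0.044, limma adjusted p = 6.02e-06). Slc37a2 effects in KI and WT differed by 0.41 ± 0.062 (KI minus WT, limma adjusted p = 4.98e-06). Slc37a2 lost its LPS call in KI without KI untreated replicate 1 (0.12), KI untreated replicate 2 (0.13), KI LPS replicate 1 (0.13) or KI LPS replicate 2 (0.12), at a limma adjusted p from 0.0765 to 0.0951.

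Slc37a4 levels were 17.9 and 17.2 in KI LPS, 14.5 and 14.6 in untreated KI, 7.16 and 8.27 in WT LPS and 14.0 and 13.1 in untreated WT libraries. Here too the LPS libraries of the 2 genotypes lay on either side of the untreated ones. Slc37a4 rose with LPS in KI (log2 difference 0.25 ± 0.092, limma adjusted p = 0.0222) and fell in WT cells (log2 difference -0.74 ± 0.092, limma adjusted p = 2.00e-07). Slc37a4 effects in KI and WT differed by 0.99 ± 0.13 (KI minus WT, limma adjusted p = 4.69e-07). Slc37a4 lost its LPS call in KI without KI untreated replicate 1 (0.25), KI untreated replicate 2 (0.25), KI LPS replicate 1 (0.23) or KI LPS replicate 2 (0.28), at a limma adjusted p from 0.0562 to 0.119. Slc37a4 also lost its LPS call in KI with no filter on low values (limma adjusted p = 0.0516). Slc50a1, a glucose carrier of the SWEET family, moved the same way, with log2 LPS effects of 0.35 in KI and -0.30 in WT, both of which passed in limma. Slc45a4 fell in both genotypes (-0.41 in KI and -0.60 in WT), as did Slc37a3 (-0.28 and -0.39). Slc2a3, the glucose carrier GLUT3, did not pass in either genotype, with mean levels of 8.32 in KI LPS, 7.51 in untreated KI, 5.81 in WT LPS and 6.57 in untreated WT cells. The summed level of the sugar carriers was 785 and 784 in KI LPS, 747 and 751 in untreated KI, 726 and 734 in WT LPS and 744 and 709 in untreated WT libraries.

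**Figure D4:**
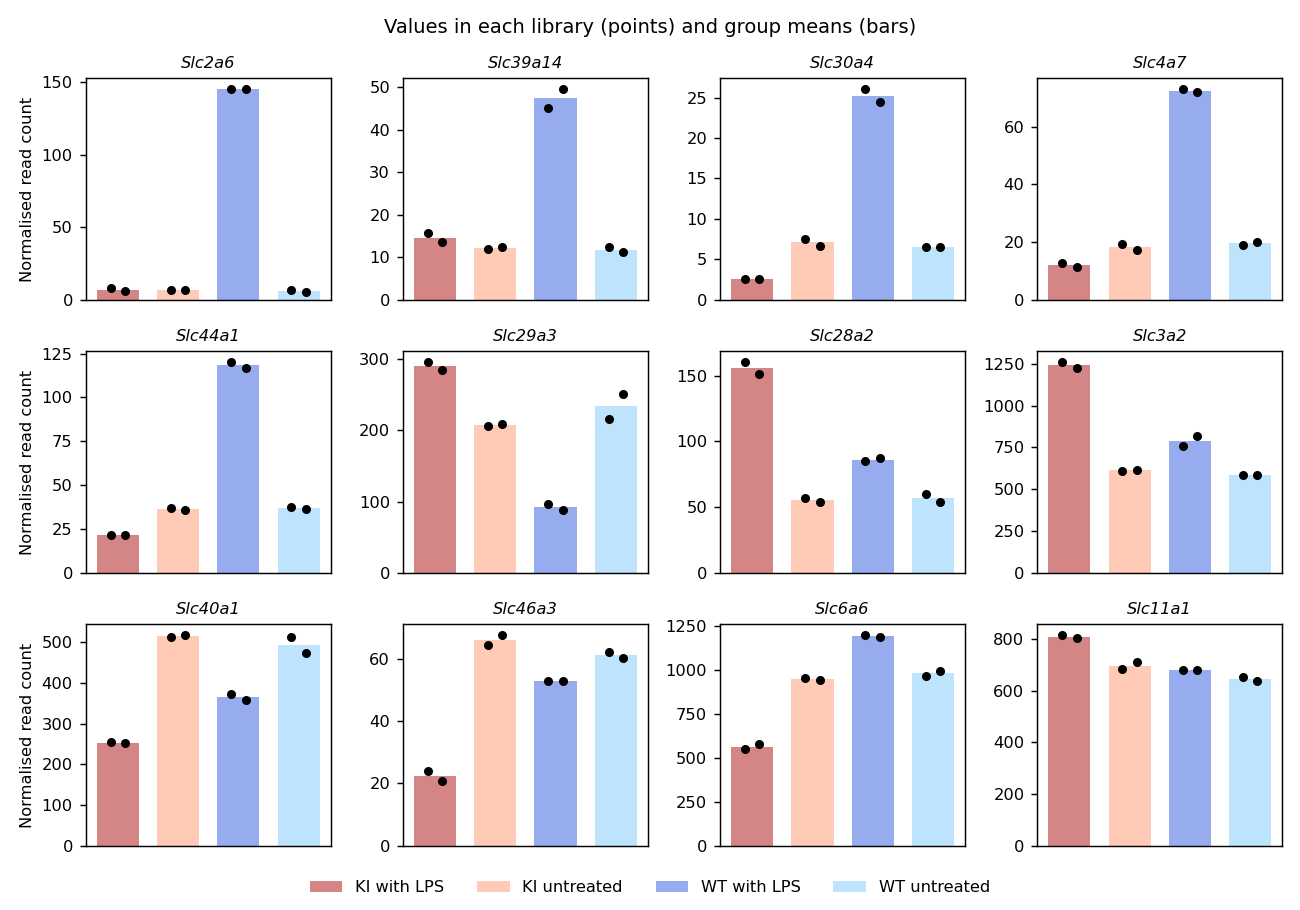
Normalised read count of 12 solute carrier genes in each library (points) with the group mean (bars from 0), in the order KI with LPS, KI untreated, WT with LPS and WT untreated, each with 2 libraries. Slc2a6, Slc39a14, Slc30a4, Slc4a7 and Slc44a1 stand high in WT LPS libraries, and Slc28a2 and Slc3a2 in KI LPS libraries.

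Amino acid and peptide carriers held the carrier with the highest level per kilobase, Slc3a2, and their summed level stood higher with LPS in both genotypes. It was 3560 and 3530 in KI LPS, 2531 and 2558 in untreated KI, 3368 and 3463 in WT LPS and 2503 and 2471 in untreated WT libraries. Such a sum is weighted to abundant genes, above all Slc3a2, and rests on the scaling factors. It does not show a rise across the class. Of 22 genes 11 rose and 6 fell with LPS in KI, against 10 that rose and 6 that fell in WT, and the LPS effect was higher in KI for 8 and lower for 7. The median log2 LPS effect over the class was 0.19 in KI and 0.078 in WT. Slc3a2, the CD98 heavy chain, pairs with light chains that carry the amino acids. Slc3a2 levels were 1260 and 1223 in KI LPS, 607 and 616 in untreated KI, 756 and 817 in WT LPS and 584 and 582 in untreated WT libraries. For Slc3a2 all LPS libraries lay above all untreated ones, and the KI LPS libraries above the WT LPS libraries. Slc3a2 rose with LPS in both KI (log2 difference 1.02 ± 0.047, limma adjusted p = 4.05e-15) and WT cells (log2 difference 0.43 ± 0.047, limma adjusted p = 2.29e-08). Slc3a2 effects in KI and WT differed by 0.59 ± 0.066 (KI minus WT, limma adjusted p = 4.19e-08). Slc3a2 turned to -0.058 with quantile normalisation in its LPS call in WT (limma adjusted p = 0.267). Slc7a5 (LAT1) and Slc7a8 (LAT2) are light chains of CD98 for large neutral amino acids. Slc7a8 levels were 255 and 258 in KI LPS, 112 and 113 in untreated KI, 216 and 219 in WT LPS and 113 and 128 in untreated WT libraries. As for the heavy chain, KI LPS libraries were highest and WT LPS libraries next, and all LPS libraries lay above all untreated ones. Slc7a8 rose with LPS in both KI (log2 difference 1.18 ± 0.052, limma adjusted p = 2.04e-15) and WT cells (log2 difference 0.85 ± 0.052, limma adjusted p = 5.67e-13). Slc7a8 effects in KI and WT differed by 0.33 ± 0.074 (KI minus WT, limma adjusted p = 4.87e-04).

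Slc7a5 levels were 22.6 and 25.0 in KI LPS, 13.0 and 13.5 in untreated KI, 17.1 and 18.7 in WT LPS and 12.0 and 13.5 in untreated WT libraries. Its level was low beside that of its heavy chain, and LPS libraries again stood above untreated ones in each genotype. Slc7a5 rose with LPS in both KI (log2 difference 0.80 ± 0.088, limma adjusted p = 3.90e-08) and WT cells (log2 difference 0.46 ± 0.088, limma adjusted p = 9.02e-05). Slc7a5 effects in KI and WT differed by 0.34 ± 0.12 (KI minus WT, limma adjusted p = 0.0189). Slc7a5 lost its difference between genotypes without KI untreated replicate 1 (0.32), KI LPS replicate 2 (0.27), WT untreated replicate 2 (0.27) or WT LPS replicate 1 (0.28), at a limma adjusted p from 0.0597 to 0.104. Slc7a5 also lost its difference between genotypes with no filter on low values and quantile normalisation (limma adjusted p from 0.0509 to 0.0643). The y+LAT light chains, which exchange cationic for neutral amino acids, differed from each other: Slc7a7 rose in both genotypes (0.46 in KI and 0.42 in WT, log2), with an interaction of 0.038 (limma adjusted p = 0.682), and Slc7a6 rose in KI (0.26) but did not pass in WT (-0.17). Exons of Slc7a7 overlap Oxa1l on the other strand, and whether reads were counted by strand is not given in the sources used here.

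Several carriers of aromatic amino acids, glutamine and cationic amino acids had a smaller LPS effect in KI than in WT. Slc16a10 (TAT1) carries aromatic amino acids. Slc16a10 levels were 141 and 146 in KI LPS, 121 and 113 in untreated KI, 275 and 271 in WT LPS and 119 and 120.2 in untreated WT libraries. For Slc16a10 the WT LPS libraries stood far above the other 6. Slc16a10 rose with LPS in both KI (log2 difference 0.29 ± 0.049, limma adjusted p = 2.29e-05) and WT cells (log2 difference 1.18 ± 0.049, limma adjusted p = 2.09e-16). Slc16a10 effects in KI and WT differed by -0.89 ± 0.069 (KI minus WT, limma adjusted p = 6.62e-11). Slc38a1 (SNAT1) takes up glutamine with sodium. Slc38a1 levels were 59.4 and 56.5 in KI LPS, 74.1 and 70.4 in untreated KI, 178 and 174 in WT LPS and 78.0 and 76.9 in untreated WT libraries. The 2 LPS groups moved apart, with KI LPS the lowest group and WT LPS the highest. Slc38a1 fell with LPS in KI (log2 difference -0.31 ± 0.053, limma adjusted p = 2.03e-05) and rose in WT cells (log2 difference 1.17 ± 0.053, limma adjusted p = 1.05e-15). Slc38a1 effects in KI and WT differed by -1.49 ± 0.074 (KI minus WT, limma adjusted p = 1.48e-14). Slc38a2 (SNAT2), its close relative, had mean levels of 105 in KI LPS, 86.4 in untreated KI, 172 in WT LPS and 96.0 in untreated WT cells, and rose in both genotypes (0.28 in KI and 0.83 in WT, log2). The cationic amino acid carrier Slc7a1 (CAT1), which takes up arginine, had means of 41.4 in KI LPS, 32.1 in untreated KI, 66.7 in WT LPS and 32.0 in untreated WT cells. It also rose in both, by 0.36 in KI and 1.04 in WT, and the effects differed by -0.68 (limma adjusted p = 2.96e-07).

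Lysosomal amino acid and peptide carriers did not move together. Slc15a3 exports peptides and histidine from lysosomes. Slc15a3 levels were 607 and 618 in KI LPS, 374 and 389 in untreated KI, 777 and 822 in WT LPS and 365 and 351 in untreated WT libraries. For Slc15a3 all LPS libraries were above all untreated libraries, WT LPS highest. Slc15a3 rose with LPS in both KI (log2 difference 0.68 ± 0.046, limma adjusted p = 6.80e-12) and WT cells (log2 difference 1.16 ± 0.046, limma adjusted p = 9.50e-17). Slc15a3 effects in KI and WT differed by -0.47 ± 0.065 (KI minus WT, limma adjusted p = 9.98e-07). Slc15a3 turned to 0.078 with quantile normalisation in its difference between genotypes (limma adjusted p = 0.289). Exons of Slc15a3 overlap those of Tmem132a on the other strand over 28.1% of their length, so part of its reads may belong to that gene. Its relative Slc15a4 passed in neither genotype (0.12 in KI and 0.089 in WT, log2). Slc36a1 moves amino acids out of lysosomes with protons. Slc36a1 levels were 62.0 and 59.2 in KI LPS, 60.7 and 60.8 in untreated KI, 35.9 and 36.7 in WT LPS and 64.0 and 61.5 in untreated WT libraries. For Slc36a1 only the WT LPS libraries stood apart, below the other 6. Slc36a1 did not pass the test with LPS in KI (log2 difference -0.0026 ± 0.057, limma adjusted p = 0.975) and fell in WT cells (log2 difference -0.77 ± 0.057, limma adjusted p = 2.26e-11). Slc36a1 effects in KI and WT differed by 0.77 ± 0.081 (KI minus WT, limma adjusted p = 1.43e-08).

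Slc43a2 (LAT4) is a facilitative carrier of branched-chain amino acids. Slc43a2 levels were 530.5 and 525 in KI LPS, 608 and 603 in untreated KI, 425 and 410.1 in WT LPS and 592 and 581 in untreated WT libraries. For Slc43a2 both LPS groups lay below the untreated libraries, WT LPS lowest. Slc43a2 fell with LPS in both KI (log2 difference -0.20 ± 0.044, limma adjusted p = 5.09e-04) and WT cells (log2 difference -0.49 ± 0.044, limma adjusted p = 7.80e-10). Slc43a2 effects in KI and WT differed by 0.29 ± 0.062 (KI minus WT, limma adjusted p = 2.62e-04). Slc38a9, a lysosomal arginine sensor and carrier, did not pass in KI (-0.031) and fell in WT (-0.21). Slc1a5 (ASCT2), a glutamine carrier of dividing cells, passed in neither genotype, with means of 15.3 in KI LPS, 17.3 in untreated KI, 17.1 in WT LPS and 16.4 in untreated WT cells. Slc1a4 (ASCT1) rose in KI (0.37) and fell in WT (-0.37), at mean levels of 3.37 in KI LPS, 2.38 in untreated KI, 1.94 in WT LPS and 2.80 in untreated WT cells. Slc15a2, a proton-coupled peptide carrier near the limit of the set, fell in KI to 1.31, against 2.79 in untreated KI.

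**Figure D5:**
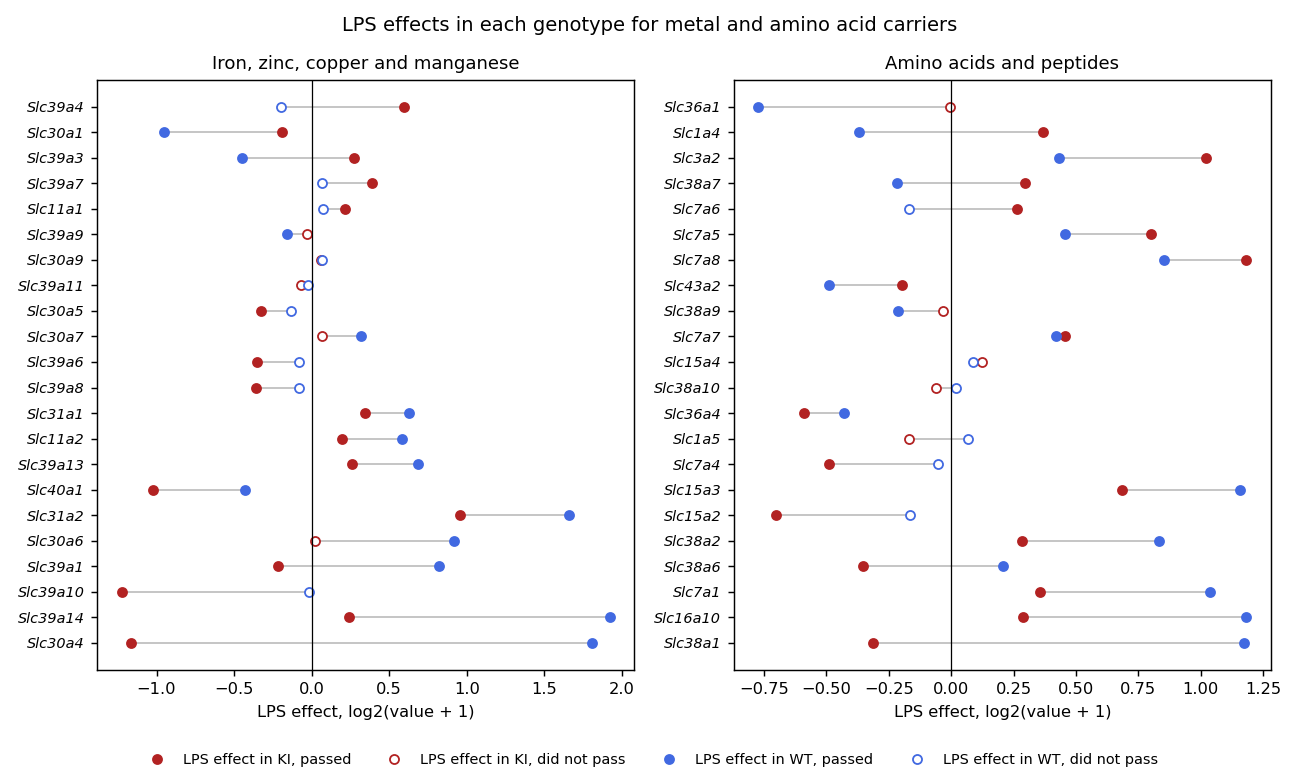
LPS effect (difference of log2(value + 1)) of each carrier of iron, zinc, copper and manganese (left) and of amino acids and peptides (right), in KI (red) and WT (blue), filled where it passed the limma test and open where it did not. The line between the 2 points of a gene is the difference between genotypes, which is widest for Slc30a4 among metal carriers and for Slc38a1 among amino acid carriers.

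Among carriers of zinc, iron, copper and manganese, 17 passed the LPS test in KI and 13 in WT, the WT share being close to that of all genes, and for 18 the effect differed between genotypes. Of all tested genes 56.7% passed in KI and 57.6% in WT, and the effect differed for 63.7%. Of 22 genes 9 rose and 8 fell with LPS in KI, against 9 that rose and 4 that fell in WT, and the LPS effect was higher in KI for 5 and lower for 13. Between the LPS groups, 6 were higher and 14 lower in KI, where 38.5% of all genes were higher and 36.8% lower. Slc39 proteins (ZIP) bring zinc into the cytosol and Slc30 proteins (ZnT) take it out. Slc39a14 (ZIP14) also carries iron. Slc39a14 levels were 15.6 and 13.6 in KI LPS, 12.0 and 12.4 in untreated KI, 45.2 and 49.6 in WT LPS and 12.4 and 11.2 in untreated WT libraries. For Slc39a14 the WT LPS libraries stood far above all others, and the KI LPS libraries a little above the untreated KI ones. Slc39a14 rose with LPS in both KI (log2 difference 0.24 ± 0.087, limma adjusted p = 0.0208) and WT cells (log2 difference 1.92 ± 0.087, limma adjusted p = 1.36e-15). Slc39a14 effects in KI and WT differed by -1.68 ± 0.12 (KI minus WT, limma adjusted p = 2.39e-11). Slc39a14 lost its LPS call in KI without KI untreated replicate 1 (0.22) or KI LPS replicate 1 (0.15), at a limma adjusted p from 0.0974 to 0.251. Slc39a14 also lost its LPS call in KI with no filter on low values (limma adjusted p = 0.0622). Slc30a4 (ZnT4) moves zinc into vesicles. Slc30a4 levels were 2.60 and 2.61 in KI LPS, 7.53 and 6.68 in untreated KI, 26.1 and 24.4 in WT LPS and 6.50 and 6.46 in untreated WT libraries. For Slc30a4 the LPS groups were the lowest in KI and the highest in WT, and neither overlapped the untreated libraries. Slc30a4 fell with LPS in KI (log2 difference -1.17 ± 0.10, limma adjusted p = 9.19e-10) and rose in WT cells (log2 difference 1.81 ± 0.10, limma adjusted p = 1.28e-13). Slc30a4 effects in KI and WT differed by -2.98 ± 0.15 (KI minus WT, limma adjusted p = 9.51e-15).

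Slc39a10 (ZIP10), a zinc importer of the plasma membrane, is described next. Slc39a10 levels were 9.76 and 8.70 in KI LPS, 24.7 and 21.2 in untreated KI, 27.1 and 24.7 in WT LPS and 25.5 and 27.0 in untreated WT libraries. For Slc39a10 the KI LPS libraries lay below the other 6, which overlapped. Slc39a10 fell with LPS in KI (log2 difference -1.23 ± 0.087, limma adjusted p = 1.78e-11) and did not pass the test in WT cells (log2 difference -0.020 ± 0.087, limma adjusted p = 0.863). Slc39a10 effects in KI and WT differed by -1.21 ± 0.12 (KI minus WT, limma adjusted p = 9.13e-09). Slc39a4 (ZIP4) is the zinc importer known from intestinal uptake. Slc39a4 levels were 21.2 and 18.3 in KI LPS, 12.1 and 13.4 in untreated KI, 9.60 and 10.7 in WT LPS and 12.6 and 11.1 in untreated WT libraries. For Slc39a4 the KI LPS libraries were the highest, and the WT LPS libraries lay just below the untreated WT ones. Slc39a4 rose with LPS in KI (log2 difference 0.60 ± 0.098, limma adjusted p = 1.68e-05) and did not pass the test in WT cells (log2 difference -0.20 ± 0.098, limma adjusted p = 0.0848). Slc39a4 effects in KI and WT differed by 0.80 ± 0.14 (KI minus WT, limma adjusted p = 2.61e-05). Slc39a3 (ZIP3) is a further zinc importer. Slc39a3 levels were 31.6 and 33.4 in KI LPS, 24.8 and 28.8 in untreated KI, 16.4 and 17.7 in WT LPS and 24.3 and 22.8 in untreated WT libraries. For Slc39a3 KI LPS libraries were the highest and WT LPS libraries the lowest. Slc39a3 rose with LPS in KI (log2 difference 0.27 ± 0.080, limma adjusted p = 0.00566) and fell in WT cells (log2 difference -0.45 ± 0.080, limma adjusted p = 3.98e-05). Slc39a3 effects in KI and WT differed by 0.72 ± 0.11 (KI minus WT, limma adjusted p = 6.81e-06). Slc39a3 lost its LPS call in KI without KI untreated replicate 1 (0.17) or KI LPS replicate 2 (0.24), at a limma adjusted p from 0.0615 to 0.154.

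Slc30a1 (ZnT1) exports zinc across the plasma membrane. Slc30a1 levels were 73.9 and 83.5 in KI LPS, 87.7 and 92.0 in untreated KI, 45.5 and 46.6 in WT LPS and 93.1 and 87.4 in untreated WT libraries. For Slc30a1 the WT LPS libraries were the lowest by far, and the KI LPS libraries lay just below the untreated ones. Slc30a1 fell with LPS in both KI (log2 difference -0.19 ± 0.060, limma adjusted p = 0.00941) and WT cells (log2 difference -0.95 ± 0.060, limma adjusted p = 1.05e-12). Slc30a1 effects in KI and WT differed by 0.76 ± 0.085 (KI minus WT, limma adjusted p = 3.95e-08). Slc30a1 lost its LPS call in KI without KI untreated replicate 2 (-0.16) or KI LPS replicate 1 (-0.10), at a limma adjusted p from 0.0916 to 0.240. Exons of Slc30a1 overlap 1700034H15Rik on the other strand over 8.92% of their length. Other zinc carriers were Slc39a1 (ZIP1, log2 LPS effect -0.22 in KI and 0.82 in WT), Slc30a6 (0.019 and 0.92) and Slc39a7 (0.39 and 0.064). Of these effects those of Slc30a6 in KI and Slc39a7 in WT did not pass, and the difference between genotypes passed for all 3. Slc39a8 (ZIP8) fell in KI (-0.36) and did not pass in WT (-0.084).

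Iron carriers included the most abundant metal carrier of the set. Slc11a1 (NRAMP1) pumps iron and manganese out of phagosomes. Slc11a1 levels were 816 and 804 in KI LPS, 683 and 712 in untreated KI, 679 and 679 in WT LPS and 655 and 638 in untreated WT libraries. For Slc11a1 the KI LPS libraries were the highest, and the WT groups lay close together. Slc11a1 rose with LPS in KI (log2 difference 0.22 ± 0.044, limma adjusted p = 2.38e-04) and did not pass the test in WT cells (log2 difference 0.070 ± 0.044, limma adjusted p = 0.181). Slc11a1 effects in KI and WT differed by 0.14 ± 0.063 (KI minus WT, limma adjusted p = 0.0474). Slc11a1 lost its difference between genotypes without KI untreated replicate 1 (0.12), KI LPS replicate 1 (0.13), KI LPS replicate 2 (0.16), WT untreated replicate 1 (0.13), WT LPS replicate 1 (0.15) or WT LPS replicate 2 (0.14), at a limma adjusted p from 0.0770 to 0.185. Slc11a1 also lost its difference between genotypes with no filter on low values, median-of-ratios scaling, edgeR and DESeq2 (adjusted p from 0.0657 to 0.182). Slc40a1 (ferroportin) is the iron exporter of the plasma membrane. Slc40a1 levels were 254 and 252 in KI LPS, 514 and 518 in untreated KI, 373 and 358 in WT LPS and 513 and 474 in untreated WT libraries. For Slc40a1 LPS libraries lay below untreated ones in both genotypes, and lowest in KI LPS. Slc40a1 fell with LPS in both KI (log2 difference -1.03 ± 0.047, limma adjusted p = 4.08e-15) and WT cells (log2 difference -0.43 ± 0.047, limma adjusted p = 2.48e-08). Slc40a1 effects in KI and WT differed by -0.59 ± 0.066 (KI minus WT, limma adjusted p = 4.04e-08). Slc11a2 (DMT1), which imports iron, rose in both genotypes (0.20 in KI and 0.58 in WT).

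Both copper carriers rose in both genotypes. Slc31a1 (CTR1) is the high-affinity copper importer, with mean levels of 93.1 in KI LPS, 73.1 in untreated KI, 114 in WT LPS and 73.3 in untreated WT cells and log2 effects of 0.34 in KI and 0.63 in WT. Slc31a2 (CTR2) lies on lysosomes and other vesicles. Slc31a2 levels were 151 and 163 in KI LPS, 81.0 and 80.2 in untreated KI, 242 and 257 in WT LPS and 85.9 and 71.2 in untreated WT libraries. For Slc31a2 LPS libraries stood above the untreated ones in both genotypes, WT LPS highest. Slc31a2 rose with LPS in both KI (log2 difference 0.95 ± 0.065, limma adjusted p = 7.33e-12) and WT cells (log2 difference 1.66 ± 0.065, limma adjusted p = 5.93e-17). Slc31a2 effects in KI and WT differed by -0.71 ± 0.091 (KI minus WT, limma adjusted p = 4.10e-07). The copper pump Atp7a, which is no solute carrier, also rose in both (0.21 in KI and 0.36 in WT). The summed level of the 22 metal carriers was 2205 and 2201 in KI LPS, 2235 and 2284 in untreated KI, 2446 and 2484 in WT LPS and 2216 and 2113 in untreated WT libraries.

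Mitochondrial carriers of the Slc25 family exchange metabolites, nucleotides and cofactors across the inner membrane. Of 33 genes 12 rose and 9 fell with LPS in KI, against 7 that rose and 9 that fell in WT, and the LPS effect was higher in KI for 11 and lower for 9. Their summed level was 1573 and 1549 in KI LPS, 1599 and 1619 in untreated KI, 1669 and 1684 in WT LPS and 1574 and 1524 in untreated WT libraries. Slc25a3 supplies phosphate and Slc25a5 (ANT2) exchanges ADP for ATP, both for ATP synthesis. Slc25a3 levels were 275 and 282 in KI LPS, 309.8 and 312 in untreated KI, 338 and 349 in WT LPS and 301 and 291 in untreated WT libraries. For Slc25a3 the KI LPS libraries were the lowest and the WT LPS libraries the highest, over a narrow range. Slc25a3 fell with LPS in KI (log2 difference -0.16 ± 0.045, limma adjusted p = 0.00450) and rose in WT cells (log2 difference 0.21 ± 0.045, limma adjusted p = 2.45e-04). Slc25a3 effects in KI and WT differed by -0.37 ± 0.063 (KI minus WT, limma adjusted p = 1.97e-05). Slc25a3 lost its LPS call in KI without KI LPS replicate 1 (-0.14), at a limma adjusted p = 0.0523. Slc25a3 turned to -0.22 with quantile normalisation in its LPS call in WT (limma adjusted p = 1.97e-04). Slc25a3 turned to 0.018 with quantile normalisation in its difference between genotypes (limma adjusted p = 0.820). Slc25a5 levels were 254 and 246 in KI LPS, 248 and 262 in untreated KI, 262 and 265 in WT LPS and 243 and 227 in untreated WT libraries. For Slc25a5 the groups lay close together, and the KI groups overlapped. Slc25a5 did not pass the test with LPS in KI (log2 difference -0.025 ± 0.048, limma adjusted p = 0.680) and rose in WT cells (log2 difference 0.17 ± 0.048, limma adjusted p = 0.00458). Slc25a5 effects in KI and WT differed by -0.19 ± 0.068 (KI minus WT, limma adjusted p = 0.0168). Slc25a5 turned to -0.29 with quantile normalisation in its LPS call in WT (limma adjusted p = 1.91e-05). Slc25a5 lost its LPS call in WT without WT untreated replicate 2 (0.12), at a limma adjusted p = 0.0633. Slc25a5 turned to 0.20 with quantile normalisation in its difference between genotypes (limma adjusted p = 0.0140). Slc25a5 lost its difference between genotypes without KI untreated replicate 2 (-0.15), KI LPS replicate 2 (-0.17) or WT untreated replicate 2 (-0.14), at a limma adjusted p from 0.0703 to 0.0976. Slc25a5 lies on the X chromosome. Slc25a4 (ANT1), the other ADP/ATP carrier in the set, fell in KI (-0.80, limma adjusted p = 3.78e-12), to 54.7 with LPS against 96.2 without it, and did not pass in WT (0.089).

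Carriers of nucleotides were among the large changes. Slc25a25 and Slc25a23 exchange ATP-Mg for phosphate and are regulated by calcium. Slc25a25 levels were 34.7 and 35.1 in KI LPS, 23.2 and 23.8 in untreated KI, 67.6 and 64.2 in WT LPS and 23.0 and 21.0 in untreated WT libraries. For Slc25a25 both LPS groups lay above the untreated ones, WT LPS highest. Slc25a25 rose with LPS in both KI (log2 difference 0.55 ± 0.067, limma adjusted p = 2.37e-07) and WT cells (log2 difference 1.54 ± 0.067, limma adjusted p = 6.84e-16). Slc25a25 effects in KI and WT differed by -0.99 ± 0.095 (KI minus WT, limma adjusted p = 3.45e-09). Slc25a23 levels were 1.00 and 1.02 in KI LPS, 4.09 and 3.78 in untreated KI, 4.62 and 3.66 in WT LPS and 3.58 and 4.42 in untreated WT libraries. For Slc25a23 the KI LPS libraries lay far below the other 6, which overlapped. Slc25a23 fell with LPS in KI (log2 difference -1.29 ± 0.13, limma adjusted p = 1.52e-08) and did not pass the test in WT cells (log2 difference 0.039 ± 0.13, limma adjusted p = 0.824). Slc25a23 effects in KI and WT differed by -1.33 ± 0.19 (KI minus WT, limma adjusted p = 1.64e-06). Its relative Slc25a24 fell in KI (-0.18) and did not pass in WT (-0.095). Slc25a33 and Slc25a36 carry pyrimidine nucleotides. Slc25a33 levels were 9.43 and 8.56 in KI LPS, 4.48 and 4.60 in untreated KI, 9.87 and 11.5 in WT LPS and 5.27 and 3.75 in untreated WT libraries. For Slc25a33 LPS libraries were above untreated ones in both genotypes, by similar amounts. Slc25a33 rose with LPS in both KI (log2 difference 0.85 ± 0.12, limma adjusted p = 3.19e-06) and WT cells (log2 difference 1.10 ± 0.12, limma adjusted p = 4.49e-08). Slc25a33 effects in KI and WT lay -0.24 ± 0.18 apart (KI minus WT), which did not pass (limma adjusted p = 0.228). Slc25a36 levels were 29.3 and 28.6 in KI LPS, 32.9 and 33.7 in untreated KI, 25.9 and 20.3 in WT LPS and 35.5 and 37.6 in untreated WT libraries. For Slc25a36 LPS libraries were below untreated ones in both genotypes, WT LPS lowest. Slc25a36 fell with LPS in both KI (log2 difference -0.20 ± 0.083, limma adjusted p = 0.0476) and WT cells (log2 difference -0.65 ± 0.083, limma adjusted p = 3.34e-07). Slc25a36 effects in KI and WT differed by 0.45 ± 0.12 (KI minus WT, limma adjusted p = 0.00183). Slc25a36 lost its LPS call in KI without KI untreated replicate 1 (-0.21), KI untreated replicate 2 (-0.18), KI LPS replicate 1 (-0.21) or KI LPS replicate 2 (-0.18), at a limma adjusted p from 0.0962 to 0.165. Slc25a36 also lost its LPS call in KI with pseudocount 0.1, no filter on low values, median-of-ratios scaling, DESeq2 and the replicate block (adjusted p from 0.0516 to 0.155).

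Carriers for heme and iron metabolism and for amino acids followed. Slc25a37 (mitoferrin-1) brings iron into mitochondria. Slc25a37 levels were 33.4 and 33.2 in KI LPS, 24.1 and 23.4 in untreated KI, 66.8 and 66.8 in WT LPS and 25.8 and 27.1 in untreated WT libraries. For Slc25a37 LPS libraries stood above untreated ones, WT LPS highest. Slc25a37 rose with LPS in both KI (log2 difference 0.47 ± 0.064, limma adjusted p = 1.21e-06) and WT cells (log2 difference 1.31 ± 0.064, limma adjusted p = 6.64e-15). Slc25a37 effects in KI and WT differed by -0.84 ± 0.091 (KI minus WT, limma adjusted p = 2.45e-08). Slc25a28 (mitoferrin-2) rose in KI (0.39) and did not pass in WT (0.12). Slc25a38 imports glycine for heme synthesis. Slc25a38 levels were 18.9 and 17.1 in KI LPS, 11.2 and 14.1 in untreated KI, 6.31 and 7.08 in WT LPS and 10.6 and 11.3 in untreated WT libraries. For Slc25a38 KI LPS libraries were the highest and WT LPS libraries the lowest. Slc25a38 rose with LPS in KI (log2 difference 0.48 ± 0.10, limma adjusted p = 4.23e-04) and fell in WT cells (log2 difference -0.64 ± 0.10, limma adjusted p = 1.32e-05). Slc25a38 effects in KI and WT differed by 1.12 ± 0.15 (KI minus WT, limma adjusted p = 5.85e-07). Slc25a22 imports glutamate. Slc25a22 levels were 31.9 and 31.4 in KI LPS, 21.7 and 20.1 in untreated KI, 18.9 and 21.1 in WT LPS and 19.6 and 18.3 in untreated WT libraries. For Slc25a22 only the KI LPS libraries stood apart, above the other 6. Slc25a22 rose with LPS in KI (log2 difference 0.57 ± 0.078, limma adjusted p = 1.24e-06) and did not pass the test in WT cells (log2 difference 0.075 ± 0.078, limma adjusted p = 0.435). Slc25a22 effects in KI and WT differed by 0.50 ± 0.11 (KI minus WT, limma adjusted p = 4.11e-04).

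Slc25a13 (citrin) exchanges aspartate for glutamate as part of the malate-aspartate shuttle. Slc25a13 levels were 7.87 and 6.97 in KI LPS, 18.5 and 18.9 in untreated KI, 19.9 and 19.1 in WT LPS and 18.7 and 19.8 in untreated WT libraries. For Slc25a13 the KI LPS libraries lay far below the other 6. Slc25a13 fell with LPS in KI (log2 difference -1.23 ± 0.086, limma adjusted p = 1.31e-11) and did not pass the test in WT cells (log2 difference 0.021 ± 0.086, limma adjusted p = 0.854). Slc25a13 effects in KI and WT differed by -1.25 ± 0.12 (KI minus WT, limma adjusted p = 3.92e-09). Its relative Slc25a12 (aralar) passed in neither genotype (0.093 in KI and -0.036 in WT). Slc25a32 carries folate. Slc25a32 levels were 14.0 and 12.7 in KI LPS, 9.05 and 10.5 in untreated KI, 6.98 and 7.55 in WT LPS and 12.1 and 9.81 in untreated WT libraries. For Slc25a32 KI LPS libraries were the highest and WT LPS libraries the lowest. Slc25a32 rose with LPS in KI (log2 difference 0.41 ± 0.11, limma adjusted p = 0.00229) and fell in WT cells (log2 difference -0.52 ± 0.11, limma adjusted p = 1.93e-04). Slc25a32 effects in KI and WT differed by 0.94 ± 0.15 (KI minus WT, limma adjusted p = 1.05e-05). Slc25a32 lost its LPS call in KI without KI untreated replicate 1 (0.31), at a limma adjusted p = 0.0517. Slc25a10, the dicarboxylate carrier, had means of 42.4 in KI LPS, 66.7 in untreated KI, 73.5 in WT LPS and 61.1 in untreated WT cells. It fell in KI (-0.64) and rose in WT (0.26), and the effects differed by -0.91 (limma adjusted p = 3.70e-09). Slc25a20, which brings acylcarnitines in for fatty acid oxidation, rose in KI (0.45) and did not pass in WT (-0.10).

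Anion carriers included some of the widest differences between the genotypes. Of 12 carriers of chloride, bicarbonate, sulphate and phosphate 3 rose and 8 fell with LPS in KI, against 5 that rose and 5 that fell in WT, and the LPS effect was higher in KI for 3 and lower for 7. Their summed level was 386 and 394 in KI LPS, 492 and 489 in untreated KI, 590.1 and 586 in WT LPS and 500.0 and 492 in untreated WT libraries. Slc4a7 (NBCn1) brings bicarbonate in with sodium and so raises cell pH. Slc4a7 levels were 12.8 and 11.2 in KI LPS, 19.4 and 17.3 in untreated KI, 73.1 and 71.9 in WT LPS and 19.0 and 20.0 in untreated WT libraries. For Slc4a7 the WT LPS libraries stood far above all others, and the KI LPS libraries lay below all others. Slc4a7 fell with LPS in KI (log2 difference -0.57 ± 0.080, limma adjusted p = 1.66e-06) and rose in WT cells (log2 difference 1.84 ± 0.080, limma adjusted p = 5.15e-16). Slc4a7 effects in KI and WT differed by -2.41 ± 0.11 (KI minus WT, limma adjusted p = 3.63e-15). Slc12a4 (KCC1) and Slc12a7 (KCC4) let potassium and chloride out together, which shrinks cells. Slc12a4 levels were 31.4 and 30.8 in KI LPS, 42.8 and 40.8 in untreated KI, 93.6 and 97.6 in WT LPS and 41.8 and 40.7 in untreated WT libraries. The pattern was that of Slc4a7, with WT LPS highest and KI LPS lowest. Slc12a4 fell with LPS in KI (log2 difference -0.42 ± 0.059, limma adjusted p = 2.31e-06) and rose in WT cells (log2 difference 1.19 ± 0.059, limma adjusted p = 8.30e-15). Slc12a4 effects in KI and WT differed by -1.61 ± 0.084 (KI minus WT, limma adjusted p = 3.36e-14).

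Slc12a7 fell in KI (-0.52) and rose in WT (0.24), the WT effect being -0.049 with quantile normalisation. Slc12a2 (NKCC1) works the other way and brings sodium, potassium and chloride in. Slc12a2 levels were 3.66 and 3.19 in KI LPS, 7.12 and 8.33 in untreated KI, 8.24 and 6.80 in WT LPS and 9.49 and 10.2 in untreated WT libraries. For Slc12a2 the KI LPS libraries were the lowest, at a low level overall. Slc12a2 fell with LPS in both KI (log2 difference -0.98 ± 0.12, limma adjusted p = 1.45e-07) and WT cells (log2 difference -0.35 ± 0.12, limma adjusted p = 0.0126). Slc12a2 effects in KI and WT differed by -0.63 ± 0.16 (KI minus WT, limma adjusted p = 0.00191). Slc12a2 lost its LPS call in WT without WT untreated replicate 2 (-0.30) or WT LPS replicate 2 (-0.23), at a limma adjusted p from 0.0790 to 0.172. Slc12a2 also lost its LPS call in WT with no filter on low values and quantile normalisation (limma adjusted p from 0.0628 to 0.150). Slc12a9 belongs to the same family. Slc12a9 levels were 40.8 and 39.1 in KI LPS, 33.9 and 35.1 in untreated KI, 17.5 and 17.0 in WT LPS and 34.4 and 27.6 in untreated WT libraries. For Slc12a9 KI LPS libraries were the highest and WT LPS libraries the lowest. Slc12a9 rose with LPS in KI (log2 difference 0.21 ± 0.081, limma adjusted p = 0.0348) and fell in WT cells (log2 difference -0.80 ± 0.081, limma adjusted p = 6.80e-09). Slc12a9 effects in KI and WT differed by 1.01 ± 0.11 (KI minus WT, limma adjusted p = 5.44e-08). Slc12a9 lost its LPS call in KI without KI untreated replicate 1 (0.18), KI untreated replicate 2 (0.23), KI LPS replicate 1 (0.18) or KI LPS replicate 2 (0.24), at a limma adjusted p from 0.0638 to 0.168. Slc12a9 also lost its LPS call in KI with no filter on low values and quantile normalisation (limma adjusted p from 0.0756 to 0.117).

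Slc26a11 carries sulphate and chloride. Slc26a11 levels were 56.7 and 61.2 in KI LPS, 55.1 and 58.9 in untreated KI, 26.8 and 28.1 in WT LPS and 55.3 and 51.1 in untreated WT libraries. For Slc26a11 only the WT LPS libraries stood apart, below the other 6. Slc26a11 did not pass the test with LPS in KI (log2 difference 0.046 ± 0.064, limma adjusted p = 0.566) and fell in WT cells (log2 difference -0.93 ± 0.064, limma adjusted p = 6.04e-12). Slc26a11 effects in KI and WT differed by 0.97 ± 0.091 (KI minus WT, limma adjusted p = 1.91e-09). Slc26a6, an anion exchanger of the same family, rose in KI (0.31) and fell in WT (-0.54). Slc20a1 (PiT1), a sodium-coupled phosphate importer, had means of 29.6 in KI LPS, 42.0 in untreated KI, 65.5 in WT LPS and 44.1 in untreated WT cells. It fell in KI (-0.49) and rose in WT (0.56), and the effects differed by -1.05 (limma adjusted p = 2.19e-10).

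Carriers of sodium, protons, calcium and magnesium comprised 12 genes, of which 3 rose and 6 fell with LPS in KI, against 6 that rose and 2 that fell in WT, and the LPS effect was higher in KI for 2 and lower for 6. Slc24a3 (NCKX3) exchanges sodium for calcium and potassium at the plasma membrane. Slc24a3 levels were 1.49 and 1.43 in KI LPS, 7.23 and 7.31 in untreated KI, 9.60 and 10.9 in WT LPS and 7.67 and 7.73 in untreated WT libraries. For Slc24a3 the KI LPS libraries lay far below the other 6, and the WT LPS libraries highest. Slc24a3 fell with LPS in KI (log2 difference -1.75 ± 0.11, limma adjusted p = 1.68e-12) and rose in WT cells (log2 difference 0.37 ± 0.11, limma adjusted p = 0.00623). Slc24a3 effects in KI and WT differed by -2.12 ± 0.16 (KI minus WT, limma adjusted p = 2.39e-11). Slc24a3 lost its LPS call in WT without WT LPS replicate 2 (0.29), at a limma adjusted p = 0.0843. Slc24a6 (NCLX) exchanges sodium for calcium across the inner mitochondrial membrane and was the most abundant of the class by level. Slc24a6 levels were 108 and 111 in KI LPS, 98.7 and 97.8 in untreated KI, 134 and 135 in WT LPS and 99.6 and 86.1 in untreated WT libraries. For Slc24a6 LPS libraries were above untreated ones in both genotypes, WT LPS highest. Slc24a6 rose with LPS in both KI (log2 difference 0.16 ± 0.057, limma adjusted p = 0.0207) and WT cells (log2 difference 0.53 ± 0.057, limma adjusted p = 2.06e-08). Slc24a6 effects in KI and WT differed by -0.37 ± 0.081 (KI minus WT, limma adjusted p = 3.54e-04). Slc24a6 lost its LPS call in KI without KI untreated replicate 1 (0.17), KI untreated replicate 2 (0.15) or KI LPS replicate 2 (0.14), at a limma adjusted p from 0.0639 to 0.122. Slc24a6 also lost its LPS call in KI with no filter on low values and quantile normalisation (limma adjusted p from 0.0739 to 0.215). Slc24a6 lost its difference between genotypes with quantile normalisation (limma adjusted p = 0.107). Slc9a9 (NHE9), a sodium/proton exchanger of endosomes, fell in KI (-0.88) and rose in WT (0.21), the WT effect being -0.079 with quantile normalisation. The magnesium carrier Slc41a2 also fell in KI (-0.30) and rose in WT (0.61).

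Nucleoside and nucleotide sugar carriers held the largest increase in KI. Of 10 genes 6 rose and 3 fell with LPS in KI, against 3 that rose and 3 that fell in WT, and the LPS effect was higher in KI for 3 and lower for 2. Their summed level was 751 and 723 in KI LPS, 561 and 565 in untreated KI, 476 and 468 in WT LPS and 565 and 586 in untreated WT libraries. Slc28a2 (CNT2) concentrates purine nucleosides with sodium. Slc28a2 levels were 160.4 and 152 in KI LPS, 56.7 and 53.6 in untreated KI, 85.0 and 87.2 in WT LPS and 60.1 and 53.7 in untreated WT libraries. For Slc28a2 LPS libraries were above untreated ones in both genotypes, KI LPS highest. Slc28a2 rose with LPS in both KI (log2 difference 1.48 ± 0.058, limma adjusted p = 2.24e-16) and WT cells (log2 difference 0.59 ± 0.058, limma adjusted p = 4.65e-09). Slc28a2 effects in KI and WT differed by 0.89 ± 0.083 (KI minus WT, limma adjusted p = 1.70e-09). Slc29a3 (ENT3) lets nucleosides out of lysosomes. Slc29a3 levels were 296 and 285 in KI LPS, 206 and 209.5 in untreated KI, 97.0 and 88.2 in WT LPS and 216 and 252 in untreated WT libraries. For Slc29a3 the KI LPS libraries were the highest and the WT LPS libraries the lowest, with the untreated groups between. Slc29a3 rose with LPS in KI (log2 difference 0.48 ± 0.059, limma adjusted p = 2.51e-07) and fell in WT cells (log2 difference -1.33 ± 0.059, limma adjusted p = 1.02e-15). Slc29a3 effects in KI and WT differed by 1.81 ± 0.084 (KI minus WT, limma adjusted p = 3.21e-15). Slc29a2 (ENT2) equilibrates nucleosides across the plasma membrane. Slc29a2 levels were 4.22 and 4.29 in KI LPS, 3.33 and 2.70 in untreated KI, 0.955 and 1.38 in WT LPS and 2.56 and 2.31 in untreated WT libraries. As for Slc29a3, the KI LPS libraries were the highest and the WT LPS libraries the lowest, at a level near the limit of the set. Slc29a2 rose with LPS in KI (log2 difference 0.39 ± 0.14, limma adjusted p = 0.0179) and fell in WT cells (log2 difference -0.67 ± 0.14, limma adjusted p = 1.88e-04). Slc29a2 effects in KI and WT differed by 1.07 ± 0.19 (KI minus WT, limma adjusted p = 4.64e-05). Slc29a2 lost its LPS call in KI without KI untreated replicate 2 (0.28), KI LPS replicate 1 (0.40) or KI LPS replicate 2 (0.39), at a limma adjusted p from 0.0672 to 0.183. Slc29a2 also lost its LPS call in KI with no filter on low values (limma adjusted p = 0.0539). Slc29a1 (ENT1) rose in KI (0.18) and did not pass in WT (0.029). Slc43a3, a purine nucleobase carrier, fell in KI (-0.83) and rose in WT (0.26). Slc35a3, which carries UDP-N-acetylglucosamine into the Golgi, did the same (-0.45 in KI and 0.32 in WT).

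Of 8 carboxylate carriers 1 rose and 2 fell with LPS in KI, against 3 that rose and 4 that fell in WT, and the LPS effect was higher in KI for 3 and lower for 4. Slc13a3 (NaDC3) takes up succinate and other dicarboxylates with sodium. Slc13a3 levels were 9.33 and 9.77 in KI LPS, 27.7 and 25.9 in untreated KI, 36.4 and 39.0 in WT LPS and 25.6 and 23.6 in untreated WT libraries. For Slc13a3 the KI LPS libraries were the lowest and the WT LPS libraries the highest, without overlap. Slc13a3 fell with LPS in KI (log2 difference -1.40 ± 0.077, limma adjusted p = 1.51e-13) and rose in WT cells (log2 difference 0.59 ± 0.077, limma adjusted p = 4.20e-07). Slc13a3 effects in KI and WT differed by -1.99 ± 0.11 (KI minus WT, limma adjusted p = 9.24e-14). Slc16a6 and Slc16a9 are members of the monocarboxylate carrier family. Slc16a6 levels were 84.0 and 83.0 in KI LPS, 60.6 and 54.7 in untreated KI, 42.4 and 38.4 in WT LPS and 59.7 and 60.8 in untreated WT libraries. For Slc16a6 KI LPS libraries were the highest and WT LPS libraries the lowest. Slc16a6 rose with LPS in KI (log2 difference 0.53 ± 0.062, limma adjusted p = 1.24e-07) and fell in WT cells (log2 difference -0.57 ± 0.062, limma adjusted p = 2.61e-08). Slc16a6 effects in KI and WT differed by 1.09 ± 0.088 (KI minus WT, limma adjusted p = 1.23e-10). Exons of Slc16a6 overlap those of Amz2 and Arsg on the other strand, and the larger of these 2 overlaps covers 21.5% of the Slc16a6 exon length. Slc16a9 levels were 4.73 and 4.11 in KI LPS, 10.6 and 9.49 in untreated KI, 6.28 and 6.22 in WT LPS and 9.97 and 9.53 in untreated WT libraries. For Slc16a9 both LPS groups lay below the untreated libraries, KI LPS lowest. Slc16a9 fell with LPS in both KI (log2 difference -1.03 ± 0.11, limma adjusted p = 1.50e-08) and WT cells (log2 difference -0.57 ± 0.11, limma adjusted p = 6.63e-05). Slc16a9 effects in KI and WT differed by -0.46 ± 0.15 (KI minus WT, limma adjusted p = 0.0105). Slc16a9 lost its difference between genotypes without KI untreated replicate 1 (-0.39) or KI LPS replicate 2 (-0.38), at a limma adjusted p from 0.0579 to 0.0610. The lactate carriers Slc16a3 (MCT4) and Slc16a1 (MCT1) did not pass in KI (-0.074 and -0.10) and rose in WT (0.58 and 0.32), and for both the difference between genotypes passed.

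Among carriers of vitamins, cofactors and heme, 7 of 9 fell in WT, where 30.7% of all genes fell. The class was not tested as a set. Of their 9 genes 2 rose and 2 fell with LPS in KI, against 1 that rose and 7 that fell in WT, and the LPS effect was higher in KI for 5 and lower for 2. Slc48a1 (HRG1) moves heme out of the phagolysosome. Slc48a1 levels were 568 and 561 in KI LPS, 494 and 517 in untreated KI, 397 and 394 in WT LPS and 488 and 474 in untreated WT libraries. For Slc48a1 KI LPS libraries were the highest and WT LPS libraries the lowest. Slc48a1 rose with LPS in KI (log2 difference 0.16 ± 0.044, limma adjusted p = 0.00398) and fell in WT cells (log2 difference -0.28 ± 0.044, limma adjusted p = 6.72e-06). Slc48a1 effects in KI and WT differed by 0.44 ± 0.063 (KI minus WT, limma adjusted p = 1.63e-06). Slc48a1 lost its LPS call in KI without KI untreated replicate 1 (0.13), at a limma adjusted p = 0.0735. Slc46a3 is a lysosomal carrier. Slc46a3 levels were 24.0 and 20.9 in KI LPS, 64.5 and 67.7 in untreated KI, 52.9 and 52.8 in WT LPS and 62.3 and 60.4 in untreated WT libraries. For Slc46a3 the KI LPS libraries lay far below the others, and the WT LPS libraries a little below the untreated ones. Slc46a3 fell with LPS in both KI (log2 difference -1.52 ± 0.065, limma adjusted p = 1.16e-15) and WT cells (log2 difference -0.21 ± 0.065, limma adjusted p = 0.00750). Slc46a3 effects in KI and WT differed by -1.31 ± 0.092 (KI minus WT, limma adjusted p = 1.13e-11). Slc19a2 takes up thiamine. Slc19a2 levels were 11.3 and 10.2 in KI LPS, 11.8 and 11.7 in untreated KI, 6.51 and 6.44 in WT LPS and 13.0 and 11.3 in untreated WT libraries. For Slc19a2 only the WT LPS libraries stood apart, below the other 6. Slc19a2 did not pass the test with LPS in KI (log2 difference -0.13 ± 0.098, limma adjusted p = 0.287) and fell in WT cells (log2 difference -0.81 ± 0.098, limma adjusted p = 1.37e-07). Slc19a2 effects in KI and WT differed by 0.69 ± 0.14 (KI minus WT, limma adjusted p = 1.56e-04). Slc23a2 (SVCT2), which takes up ascorbate, had means of 195 in KI LPS, 183 in untreated KI, 273 in WT LPS and 179 in untreated WT cells and did not pass in KI (0.089), while it was the 1 gene of the class that rose in WT (0.61). The folate carriers Slc19a1 and Slc46a1 did not pass in KI (0.040 and 0.038) and fell in WT (-0.37 and -0.29). The riboflavin carrier Slc52a2 rose in KI (0.22) and fell in WT (-0.31).

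Of 6 carriers of lipids, fatty acids, bile acids and choline 1 rose and 1 fell with LPS in KI, against 2 that rose and 1 that fell in WT, and the LPS effect was higher in KI for 1 and lower for 2. Slc44a1 (CTL1) takes up choline for phosphatidylcholine synthesis. Slc44a1 levels were 21.5 and 21.2 in KI LPS, 36.9 and 35.8 in untreated KI, 120.2 and 117 in WT LPS and 37.4 and 36.0 in untreated WT libraries. For Slc44a1 the WT LPS libraries stood far above all others, and the KI LPS libraries lay below all others. Slc44a1 fell with LPS in KI (log2 difference -0.74 ± 0.060, limma adjusted p = 2.23e-10) and rose in WT cells (log2 difference 1.66 ± 0.060, limma adjusted p = 1.30e-17). Slc44a1 effects in KI and WT differed by -2.40 ± 0.085 (KI minus WT, limma adjusted p = 1.57e-17). Slc27a1 (FATP1), a fatty acid carrier, was the most abundant of the class. Slc27a1 levels were 138 and 151 in KI LPS, 139.7 and 145 in untreated KI, 145 and 133 in WT LPS and 135 and 134 in untreated WT libraries. For Slc27a1 the LPS and untreated libraries overlapped in KI, and both KI groups lay above the untreated WT libraries, by little. Slc27a1 passed the LPS test in neither KI (log2 difference 0.021 ± 0.054, limma adjusted p = 0.767) nor WT cells (log2 difference 0.041 ± 0.054, limma adjusted p = 0.544). Slc27a1 effects in KI and WT lay -0.020 ± 0.077 apart (KI minus WT), which did not pass (limma adjusted p = 0.832). Slc44a2 rose in KI (0.14) and fell in WT (-0.31).

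Of 4 carriers of osmolytes, neurotransmitters and creatine 1 rose and 2 fell with LPS in KI, against 2 that rose and 0 that fell in WT, and the LPS effect was higher in KI for 1 and lower for 2. Slc6a6 takes up taurine, an osmolyte. Slc6a6 levels were 549.6 and 577 in KI LPS, 953 and 941 in untreated KI, 1198 and 1185 in WT LPS and 965 and 993 in untreated WT libraries. For Slc6a6 the KI LPS libraries were the lowest and the WT LPS libraries the highest, without overlap. Slc6a6 fell with LPS in KI (log2 difference -0.75 ± 0.045, limma adjusted p = 7.85e-13) and rose in WT cells (log2 difference 0.28 ± 0.045, limma adjusted p = 8.55e-06). Slc6a6 effects in KI and WT differed by -1.03 ± 0.064 (KI minus WT, limma adjusted p = 9.74e-13). Slc6a6 turned to -0.30 with quantile normalisation in its LPS call in WT (limma adjusted p = 6.86e-06). The creatine carrier Slc6a8, which lies on the X chromosome, rose in KI (0.25) and did not pass in WT (-0.082). Slc5a3, which takes up the osmolyte myo-inositol, did not pass in KI (-0.15) and rose in WT (0.31). Of 6 carriers of organic ions and other solutes 0 rose and 4 fell with LPS in KI, against 0 that rose and 3 that fell in WT, and the LPS effect was higher in KI for 0 and lower for 1. Slc17a5 (sialin) lets sialic acid out of lysosomes. Slc17a5 levels were 32.0 and 31.1 in KI LPS, 48.4 and 50.4 in untreated KI, 34.4 and 33.5 in WT LPS and 50.9 and 53.2 in untreated WT libraries. For Slc17a5 both LPS groups lay below the untreated libraries, and close to each other. Slc17a5 fell with LPS in both KI (log2 difference -0.63 ± 0.062, limma adjusted p = 5.73e-09) and WT cells (log2 difference -0.60 ± 0.062, limma adjusted p = 8.19e-09). Slc17a5 effects in KI and WT lay -0.028 ± 0.087 apart (KI minus WT), which did not pass (limma adjusted p = 0.797). The carnitine family members Slc22a4 and Slc22a5 differed, Slc22a4 falling in both genotypes (-0.49 in KI and -0.26 in WT) and Slc22a5 passing in neither.

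Set directly against each other, the KI LPS and WT LPS libraries differed in 120 of the 156 carriers, beside 75.4% of all genes. These libraries also differed in sex-linked transcripts. With LPS 60 carriers were higher and 60 lower in KI than in WT, and of all genes 38.5% were higher and 36.8% lower. The median log2 difference was -0.0037 over the carriers and 0.023 over all genes. The carriers most reduced in KI LPS cells were Slc2a6 (-4.24 ± 0.11), Slc30a4 (-2.86 ± 0.10), Slc4a7 (-2.50 ± 0.080) and Slc44a1 (-2.41 ± 0.060). Those most raised were Slc29a3 (1.64 ± 0.059), Slc25a38 (1.30 ± 0.10), Slc29a2 (1.29 ± 0.14) and Slc12a9 (1.17 ± 0.081), all as log2 difference ± SE. At least a 2-fold ratio of group means was seen for 8 carriers higher in KI and 23 lower. The share of all genes at that ratio was not counted, so these 2 numbers are without a background. With quantile normalisation Slc15a3 turned to 0.14 and Slc25a3 to 0.082. The call of Slc25a36 was lost without WT LPS replicate 2 (0.15, limma adjusted p = 0.0943), and that of Slc24a6 with quantile normalisation (-0.070, limma adjusted p = 0.305).

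With all libraries in the fit, 0 of the 156 carriers were called higher and 0 lower in untreated KI than in untreated WT by limma, where 0.00839% of all genes (1 gene) were called higher and 0% lower. An unadjusted limma p under 0.05 was reached by 16 of the 156 carriers, beside 1617 of all 11919 tested genes. For the carriers, edgeR and DESeq2 on the recovered reads also called 0. The log2 differences ran from -0.31 (Slc12a2) to 0.32 (Slc22a4), with a smallest limma adjusted p of 0.137. Without WT untreated replicate 1, limma called 3 carriers higher, Slc39a7 (0.30), Slc12a9 (0.31) and Slc22a4 (0.44), and 1 lower, Slc29a3 (-0.27), while of 11901 genes tested 263 were called higher and 220 lower. These 4 carriers were singled out after their values were seen. A p that misses the threshold does not show that the levels were equal.

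Transporters of the same kind whose symbols do not follow the pattern were read beside the set. Of 32 tested carriers with other symbols, 12 rose and 9 fell in KI, against 6 that rose and 16 that fell in WT. The shares of all tested genes were 28.5% and 28.3% in KI and 26.8% and 30.7% in WT. Slco2b1, an organic anion carrier, had levels of 1.47 and 1.43 in KI LPS, 18.1 and 18.8 in untreated KI, 13.3 and 15.0 in WT LPS and 19.7 and 18.0 in untreated WT libraries. It fell in both genotypes (-2.99 in KI and -0.39 in WT, log2), and the KI LPS libraries stood far below all others. Slco4a1, of the same family, had levels of 3.14 and 2.70 in KI LPS, 2.32 and 1.57 in untreated KI, 12.9 and 13.1 in WT LPS and 2.25 and 1.94 in untreated WT libraries. It rose in both (0.42 in KI and 2.18 in WT), with WT LPS the highest group. Slco3a1 rose in both as well (1.36 in KI and 0.43 in WT). Ank, a pyrophosphate exporter, fell in KI (-1.16) and did not pass in WT (0.089).

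Coupled carriers run on gradients that ATP-driven pumps build, and some need partner subunits. Of 14 tested pumps and partners, 3 rose and 8 fell with LPS in KI, against 6 that rose and 1 that fell in WT. Over all tested genes, 28.5% rose and 28.3% fell in KI, and 26.8% rose and 30.7% fell in WT. With LPS, 1 of the 14 was higher and 9 were lower in KI than in WT, beside 38.5% and 36.8% of all tested genes. The calcium pump of the endoplasmic reticulum Atp2a3 fell in KI (-0.91, log2) and did not pass in WT (0.023). Embigin (Emb), a partner of monocarboxylate carriers, also fell in KI (-0.84) without passing in WT (-0.080), whereas basigin (Bsg), the other such partner, passed in neither. Atp2b4, a calcium pump of the plasma membrane, rose in WT (1.08) at a low level, 3.07 and 2.92 in WT LPS against 0.928 and 0.856 in untreated WT libraries.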

How the data were processed

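RNA-seq was made from 8 samples of bone marrow-derived macrophages in 4 groups of 2, grouped by the sample labels. The authors deposited one table of 23366 genes, whose values are a signal: read counts divided by a scaled library size, as worked out from the values, which all came out as whole reads within 0.001. The tools were TopHat2 2.0.9, edgeR and bedtools and the build was mm9, per the submitters' processing notes. How reads were counted, by which annotation and whether by strand is not given in the sources used here. Genes that reached 1 in at least 2 libraries were tested with limma 3.58.1 (R 4.3.3) on log2(value + 1), which understates changes of low genes, in 1 model of 4 group means with eBayes and a trend, 2-sided. P-values were adjusted by Benjamini-Hochberg over 11919 genes, at a threshold of 0.05. The alternatives were a pseudocount of 0.1, no filter, a filter at 5, quantile and median-of-ratios scaling, edgeR 4.0.16 and DESeq2 1.42.0 on the recovered reads, only the groups compared, a replicate block and leaving out each library. Exon lengths and overlaps came from GENCODE vM21 on GRCm38, without coordinates, since the files use mm9. Promoters came from RefSeq. Members, substrate classes and lists were chosen with earlier results of these data known. Values in every library are given for the carriers among the 10 largest increases or decreases past the threshold, without overlap of libraries, in any comparison, the 10 with the highest mean and the highest of each class. Others are named as examples, and some genes are not reported here, though the counts include them.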

Additional observations from a re-analysis of the deposited data

Results flagged for a closer look

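The LPS effect differed between the genotypes, by limma's test of the difference itself, for 47 carriers with a higher effect in KI and 57 with a lower one. Of all tested genes 31.8% had a higher effect in KI and 31.8% a lower one. Given as the log2 effect in KI minus that in WT, the 10 largest positive differences included those of Slc29a3 (1.81), Slc25a38 (1.12), Slc16a6 (1.09), Slc29a2 (1.07), Slc12a9 (1.01), Slc37a4 (0.99), Slc26a11 (0.97), Slc25a32 (0.94) and Slc28a2 (0.89). The 10 largest negative differences were those of Slc2a6 (-4.39), Slc30a4 (-2.98), Slc4a7 (-2.41), Slc44a1 (-2.40), Slc24a3 (-2.12), Slc13a3 (-1.99), Slc39a14 (-1.68), Slc12a4 (-1.61), Slc38a1 (-1.49) and Slc25a23 (-1.33). Each rests on 2 libraries a group, and the KI LPS libraries also stand apart in Xist and Y-linked transcripts.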

How the results depend on the processing

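Of the calls, 71 of 107 for LPS in KI, 70 of 99 for LPS in WT, 100 of 120 between the LPS groups and 77 of 104 differences held under every alternative tried. Quantile normalisation reversed 11 values: in WT Slc6a6 (-0.30), Slc3a2 (-0.058), Slc25a3 (-0.22), Slc25a5 (-0.29), Slc12a7 (-0.049) and Slc9a9 (-0.079), between the LPS groups Slc15a3 (0.14) and Slc25a3 (0.082), and for the difference of LPS effects Slc15a3 (0.078), Slc25a3 (0.018) and Slc25a5 (0.20). The deposited scaling factors were lowest in the WT LPS libraries (0.878 and 0.866), and the cause of the reversals was not tested. Leaving out 1 library at a time gave 35 to 53 carriers that rose and 47 to 56 that fell in KI, 43 to 50 and 44 to 50 in WT, 54 to 61 higher and 59 to 61 lower between the LPS groups, and 39 to 46 and 52 to 57 for the difference. Between untreated genotypes it gave 0 to 3 higher and 0 to 1 lower. Across all alternatives tried, opposite calls numbered 29 to 39 and same-direction calls 28 to 40, counts added after seeing the data. Deviations of same-numbered libraries correlated at -0.084 to 0.089, so no pairing by replicate number was seen. This does not show that the samples were unpaired. A fit with the replicate block gave 48 carriers that rose and 55 that fell in KI and 49 and 50 in WT, 0 and 0 without LPS, 60 and 61 between the LPS groups, and 46 and 57 for the difference. With DESeq2, 46 rose and 52 fell in KI and 49 and 45 in WT, and with edgeR 50 and 56 and 50 and 47. Depth limits the lowest carriers, of which 6 had under 100 reads in some library.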

Other observations

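Of the 156 carriers, 8 lie on the X chromosome, and in KI 3 of them rose and 1 fell with LPS, against 1 that rose and 0 that fell in WT. Over all tested genes the shares were 28.5% and 28.3% in KI and 26.8% and 30.7% in WT. Exons of 10 carriers overlap those of a gene on the other strand over at least 5% of their length, most for Slc24a5 with Myef2 (39.5%) and Slc25a35 with Rangrf (31.3%), where reads cannot be assigned with certainty. The summed level of all 156 carriers was 11994 and 11964 in KI LPS, 11284 and 11392 in untreated KI, 12677 and 12799 in WT LPS and 11209 and 10989 in untreated WT libraries. These sums rest on the scaling factors, which were lowest in the WT LPS libraries (0.878 and 0.866). A ratio of LPS to untreated means of 2 or more was seen for 3 carriers in KI and 14 in WT, and one of 0.5 or less for 12 in KI and 2 in WT. The shares of all genes at these ratios were not counted, so the numbers cannot be read as particular to carriers.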
